A study of Mus musculus with 3 samples.

Results

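Distal intergenic regions read mainly with the Ets-1 virus were chosen by their read numbers in the deposited comparison of 3 chromatin libraries. On chromosomes 1 to 19 and X, a region was a member if its annotation was distal intergenic, if it held 7 or more reads in the library of the Ets-1 virus, and if it held 2 or fewer in the library of the control virus and 4 or fewer in the input. Of 285358 distal regions, 1177 met the rule (0.412%), out of 543367 regions in the whole table. Since read numbers chose the members, their excess of reads with the Ets-1 virus is a description and not a result.

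The libraries came from Min6, a mouse line of insulin-secreting cells that grew from a tumour of pancreatic β-cells. Cells in medium with 25 mM glucose were infected for 24 h with Ad-GFP, the control virus, or with Ad-Ets-1, the Ets-1 virus, an adenovirus that overexpresses Ets-1, and chromatin of both was precipitated with an antibody against Ets-1. The input was chromatin without precipitation, and the labels do not state its virus. Each of the 3 groups held 1 library, so there is no replicate check, no p-value is given, and virus and library cannot be told apart. The whole line was infected, with no other genotype or sort.

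Ets-1 belongs to the ETS family of transcription factors, which share a DNA-binding domain that reads a core of GGAA, most strongly when flanked as in CCGGAAGT or CAGGAAGT. ETS factors bind many promoters and also distal enhancers, often beside other factors. Most intergenic DNA is neither: much of it consists of transposon remnants and of microsatellites, short units such as CA or GA repeated in tandem, along with long runs of A. Such runs vary in length and are copied and aligned less reliably than other DNA.

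Simple runs were found in 454 of the 1177 members, beyond what the rule used, and also in mirrored regions described further on. The first set below shows members that hold such a run, from among those with the most reads and those near a β-cell gene. Each line gives 120 bases of the plus strand of mm10, 5′ to 3′, read from the RefSeq copy of GRCm38, under the nearest gene as deposited, and capitals mark runs of 6 or more CA or GA units on either strand or of 12 or more A or T. A run at the end of a line can be longer than the letters shown.
Gm44741 member, chr7:62985217-62985336: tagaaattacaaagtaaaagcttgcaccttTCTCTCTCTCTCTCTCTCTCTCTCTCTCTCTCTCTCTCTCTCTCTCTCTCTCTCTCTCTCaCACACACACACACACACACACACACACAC
Gm25222 member, chr3:64884497-64884616: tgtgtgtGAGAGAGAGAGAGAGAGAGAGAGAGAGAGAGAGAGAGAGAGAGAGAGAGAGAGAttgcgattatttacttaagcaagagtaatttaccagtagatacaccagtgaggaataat
Tacr1 member, chr6:82380196-82380315: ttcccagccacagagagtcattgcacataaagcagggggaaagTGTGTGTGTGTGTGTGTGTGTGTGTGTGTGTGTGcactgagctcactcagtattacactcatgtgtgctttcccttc
Gm23263 member, chr4:137188245-137188364: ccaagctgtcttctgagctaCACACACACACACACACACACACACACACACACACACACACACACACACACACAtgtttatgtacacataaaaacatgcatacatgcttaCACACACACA
Gm24398 member, chr11:23169279-23169398: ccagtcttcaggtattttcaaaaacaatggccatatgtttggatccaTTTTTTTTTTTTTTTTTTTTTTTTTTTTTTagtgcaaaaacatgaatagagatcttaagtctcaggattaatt
Nkx6-1 member, chr5:101647642-101647761: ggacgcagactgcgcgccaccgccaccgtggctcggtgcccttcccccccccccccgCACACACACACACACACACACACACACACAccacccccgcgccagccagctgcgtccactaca

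The second set shows members that hold an ETS word in the 300 bases around their centre, from the 8 such members with the most reads. Capitals mark the word, here ACTTCCTG, which is CAGGAAGT on the other strand. In the Slc35f5 member the word stands before a lower-case run of TG, and in the 1810053B23Rik member it occurs at 2 places.
Slc35f5 member, chr1:125543663-125543782: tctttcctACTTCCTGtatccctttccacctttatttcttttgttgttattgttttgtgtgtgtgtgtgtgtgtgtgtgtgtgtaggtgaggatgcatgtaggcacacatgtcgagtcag
1810053B23Rik member, chr16:93308835-93308954: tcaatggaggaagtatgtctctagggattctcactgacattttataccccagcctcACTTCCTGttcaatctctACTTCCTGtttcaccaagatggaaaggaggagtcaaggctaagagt
Mir5118 member, chr16:55408048-55408167: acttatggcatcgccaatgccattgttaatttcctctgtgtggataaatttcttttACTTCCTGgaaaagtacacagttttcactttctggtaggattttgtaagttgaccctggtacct

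Most members stood just above the threshold. With the Ets-1 virus, 276 members held 7 reads, 561 held 8, 71 held 9 and 158 held 10, and the highest held 20. The median was 8 reads. In the control virus library 890 members held 0 reads, 69 held 1 and 218 held 2, and in the input 968 held 0. Summed over the members, the counts were 10047 reads under Ad-Ets-1, 505 under Ad-GFP and 325 in the input. The libraries held 1938473, 1775757 and 3937472 reads in the same order. Of nonzero counts over all regions, 19.0% were even in the input, against 72.0% under Ad-Ets-1 and 74.5% under Ad-GFP. What made the input differ in this was not tested, and its counts may not be on a scale shared with the others. Counts were even in 67.3% of members, as when both mates of a pair are counted, so that 8 reads stand for about 4 fragments. A count of 4 fragments has an exact Poisson interval of 1.09 to 10.2, and this interval, like every interval here, covers counting error only, at the 95% level. Reads copied by PCR are not independent molecules.

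The same thresholds with the viruses exchanged gave 1030 distal regions, 0.361% of all, which are called mirrored regions here and serve as the measure of what the rule finds in the other direction. Their read numbers with the control virus also had a median of 8 and reached 18. Counts of 10 or more were held by 269 members (22.9%) and by 172 mirrored regions (16.7%). The members were thus somewhat more numerous (intervals of the shares 0.389% to 0.437% and 0.339% to 0.384%), and most of the difference lay at 10 or more reads, as the plot of read numbers shows. The library of Ad-Ets-1 had the larger total but fewer reads in all listed regions, 829285 against 972947. Just outside the rule stood 2507 distal regions with 6 reads of the Ets-1 virus that met the other limits, 11 with 3 control reads and 2 with 5 input reads. Just inside stood 276 with 7 reads, 218 with 2 control reads and 8 with 4 input reads.

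**Figure D1:**
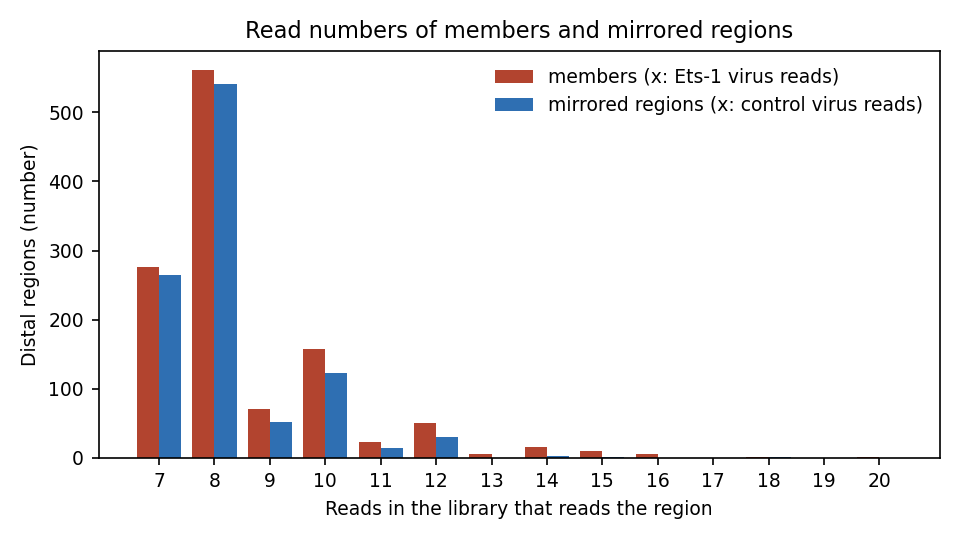
Number of distal regions (y) by read number (x), for the 1177 members, counted with the Ets-1 virus, and the 1030 mirrored regions, counted with the control virus. Both peak at 8 reads, 8, 10, 12 and 14 reads are commoner than their odd neighbours, and the members reach 20 reads.

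Other classes of the annotation place these distal regions. Of promoter regions, 1.04% met the thresholds under Ad-Ets-1 and 0.431% under Ad-GFP (433 against 180 regions). Of intron regions 0.460% and 0.406% did, and of exon regions 0.533% and 0.511%. Distal regions made up 45.0% of all regions meeting the Ets-1 virus rule (exact interval 43.1% to 46.9%) and 48.9% of those meeting the mirrored one (46.8% to 51.1%), beside 52.6% of all listed regions. The ratio between the viruses was therefore near that of introns and below that of promoters.

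Members were wider than most listed regions. Their median width was 450 bases, from 238 to 1608, beside 553 bases for the mirrored regions. The commonest width was 249 bases, held by 167 members (14.2%). Of all distal regions 32.8% had this width too. The commonest width was 238 bases in all distal regions (47.5%) and in mirrored regions (6.41%). Regions of 260 bases or less are called narrow here, and they numbered 246 members.

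The members with the most reads show the pattern in single regions. The highest, chr7:62985050-62985324, held 20 reads under Ad-Ets-1, 0 under Ad-GFP and 0 in the input. It lay 150966 bases from the start of Gm44741, a transcript model still to be tested experimentally, and held adjoining runs of GA and CA, the longest of 60 bases. The next, chr6:82380017-82380490, held 18, 0 and 0 reads in the same order and lay 21844 bases from the start of Tacr1, which encodes the receptor for substance P; its CA run was 34 bases long.

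Among regions with 16 Ets-1 virus reads, chr3:64884518-64884774 near the small nucleolar RNA gene Gm25222 held 0 reads in both other libraries and a GA run of 54 bases. The authors' deposited peak list gives it a fold enrichment of 8.11, the highest among members. The region chr6:91141155-91141561, near Hdac11, which encodes a class of histone deacetylase, held 16, 0 and 1 reads and an A run of 12 bases, the shortest length counted. Of the 12 members with the most reads, ties going to fewer control and then fewer input reads, 10 held a run, 11 had 0 control virus reads and 8 had 0 input reads. With all ties included, 17 members held 15 or more reads, and 12 of them held a run. For 3 of the 12 members first named, the nearest gene was protein coding: Tacr1, Hdac11 and Kcnj2.

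The members without a run among these 12 differed from each other. At chr11:111124250-111124499, 58086 bases from the start of Kcnj2, which encodes an inwardly rectifying potassium channel, there were 15, 0 and 1 reads. The central 50 bases of this region occurred at only 1 place in the genome. At chr14:86198869-86199314, near the pseudogene Gm49060, there were 16, 2 and 1 reads, and its central 50 bases occurred 1069 times in the genome. The placement of reads in such a sequence is uncertain. The Gm47094 member, with 15, 0 and 0 reads, did hold a run, of GA and 66 bases long, across its centre. Its central 50 bases occurred 723 times, so 2 of the 12 had repeated central bases.

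Runs of CA, GA or A lay in the 300 bases around the centre of 454 members, 38.6% (exact interval 35.8% to 41.4%). The share was 27.2% (24.5% to 30.0%) in mirrored regions and 9.61% in all distal regions. CA runs were the commonest kind, in 21.3% of members, 13.8% of mirrored regions and 4.25% of all distal regions. GA runs lay in 10.2%, 9.03% and 2.16%, and A runs in 11.5%, 7.86% and 3.92%. The intervals of members and mirrored regions did not overlap for CA (19.0% to 23.8% against 11.7% to 16.0%), while for GA they did (8.53% to 12.1% against 7.35% to 10.9%). Of the 454 members, 203 held CA runs alone, 128 A runs alone, 73 GA runs alone and 50 more than 1 kind. Kinds and lengths of runs were set after the members' sequences had been seen.

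The runs of members were also long. The median CA run was 38 bases in members, 36 in mirrored regions and 28 in all distal regions. For GA it was 40, 40 and 30 bases, and for A 16, 15 and 15.

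The share with a run rose with the number of reads, in the members and below the threshold alike. Among distal regions under the same limits for the other libraries, 8.68% of those with 1 or 2 Ets-1 virus reads held a run, 11.7% with 3 or 4 and 20.4% with 5 or 6. Within the members it was 33.7% (30.5% to 37.0%) at 7 or 8 reads, 47.9% (42.1% to 53.6%) at 9 to 12, and 73.0% (55.9% to 86.2%) at 13 to 20, where 37 members stood. With the control virus the same steps gave 8.62%, 11.6%, 18.1%, 24.7%, 36.1% and 40.0%, the last over 5 regions. Both libraries thus showed the rise, and at 7 to 8 reads the Ets-1 virus value was the higher, with intervals that did not overlap (21.7% to 27.8% for the control virus). These steps were not split by width. Just outside and just inside the Ets-1 virus limit the share was 23.6% at 6 reads and 23.6% at 7. At the control limit it was 29.8% at 2 reads (65 of 218) and 9.09% at 3 (1 of 11).

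**Figure D2:**
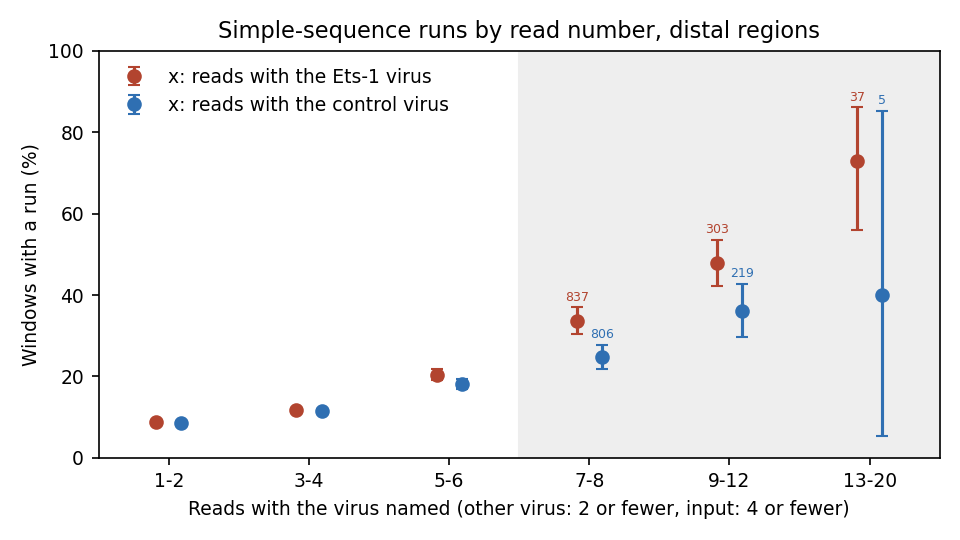
Share of distal regions with a run in percent (y), with exact 95% intervals, by reads with the virus named (x); the shaded steps are the members and the mirrored regions, with the number of regions above each. The share climbs from 8.68% to 73.0% with the Ets-1 virus and from 8.62% to 40.0% with the control virus.

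Narrow members held runs most often within the window searched, which had a fixed length around the centre. It takes in both borders of a narrow region but neither border of a region wider than 600 bases. The shares by width therefore hold for this window only, and runs in the rest of wider regions were not tested. The share was 69.5% (63.3% to 75.2%) in the 246 narrow members, 37.5% in the 547 members up to 600 bases and 20.3% in the 384 wider ones. Narrow mirrored regions had 67.0% (57.4% to 75.6%), middle ones 30.9% and wide ones 13.5%, and narrow distal regions as a whole 9.34%. Narrow regions made up 20.9% of members but 10.9% of mirrored regions, so the shares of the whole sets compare unlike widths. Within each class the intervals of members and mirrored regions overlapped (middle 33.4% to 41.7% against 26.7% to 35.3%, wide 16.4% to 24.7% against 10.5% to 17.0%). At least 1 input read was found in 41.5% of narrow members, 16.3% of middle ones and 4.69% of wide ones. In the same order mirrored regions had 39.3%, 26.8% and 17.5%, and all distal regions 5.29%, 8.93% and 7.78%. The input, whose counts may not be comparable with the others as said above, thus had reads at many narrow regions of members and mirrored regions alike. Its part in their read numbers was not tested.

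In the narrow members the runs lay more often at the edges than in the middle. The band from 80 to 140 bases on either side of the centre, which holds the region's border, met a run in 157 of 246 narrow members, 63.8% (57.5% to 69.8%). The central 120 bases, an equal length, met a run in 33, or 13.4% (9.42% to 18.3%), which is still above the 4.50% of all narrow distal regions. A run lay at the left edge of 79 narrow members, at the right edge of 81 and at both in 3. The narrow mirrored regions were alike, with 57.1% at the edges and 17.9% in the centre, and in all narrow distal regions the edge bands had 5.81%.

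The Gm25222 member printed above shows the arrangement: the run crosses the region's start and the region continues into sequence without a run. At 110 bases left of the centre 23.5% of bases in narrow members belonged to a run, and at 110 bases right of it 26.2%, against 1.65% and 2.48% next to the centre. In wider members the values were 3.83% and 4.18% at the same distances and 4.49% and 4.04% in the centre. Their borders lie at unlike distances from the centre, so this profile cannot show whether runs lie at them.

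**Figure D3:**
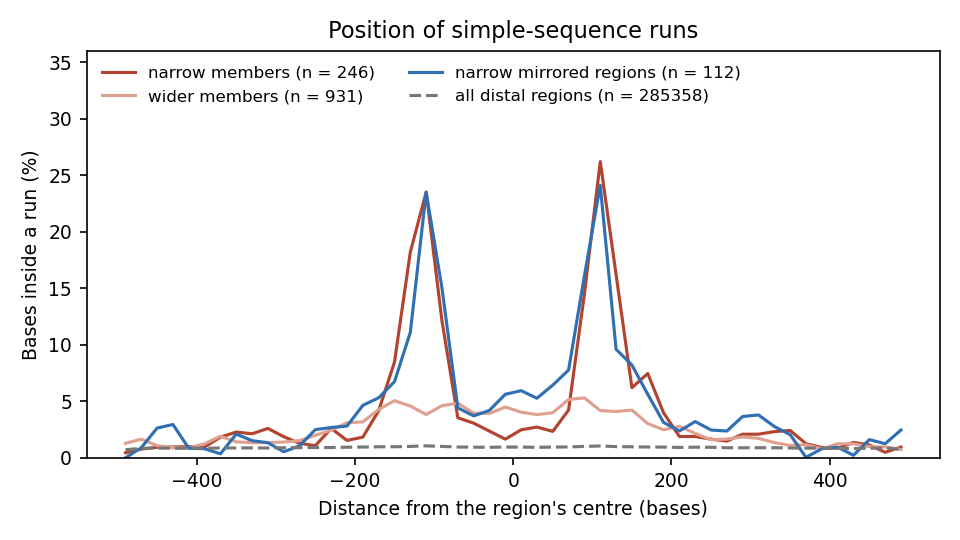
Percent of bases that belong to a run (y), in steps of 20 bases, by distance from the region's centre in bases (x), for 246 narrow and 931 wider members, 112 narrow mirrored regions and all distal regions. Narrow members and narrow mirrored regions peak at 110 bases on either side (23.5% and 26.2%; 23.5% and 24.1%), while all distal regions stay near 1%.

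Members with and without a run differed in other ways. The 454 with a run had a median width of 322 bases and the other 723 a median of 561. Runs outside the central window were not counted, so this difference in width can depend on the window. Counts of 10 or more reads were held by 32.6% of the former and 16.7% of the latter. An input read was found in 22.0% (18.3% to 26.1%) against 15.1% (12.5% to 17.9%), and a control virus read in 19.4% (15.8% to 23.3%) against 27.5% (24.3% to 30.9%). The rule limited all of these counts, so they are a description. In mirrored regions an input read was found in 22.9% of those with a run and 24.5% of those without. Their other values differed in the same direction as in members. Median widths were 368 bases with a run and 617 without, 10 or more reads were held by 23.9% and 14.0%, and an Ets-1 virus read by 18.2% and 28.1%.

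ETS words were no more common in members than elsewhere. CCGGAAGT or CAGGAAGT, searched on both strands, lay in the 300 bases of 21 members, 1.78% (1.11% to 2.71%), in 21 mirrored regions, 2.04% (1.27% to 3.10%), and in 1.86% (1.81% to 1.91%) of all distal regions. The shorter word GGAAGT, which both of these contain, lay in 14.7% (12.7% to 16.9%), 14.5% and 15.9%. The ETS word share showed no rise with reads: it was 2.03% at 7 or 8 reads (17 of 837), 0.990% at 9 to 12 (3 of 303) and 2.70% at 13 to 20 (1 of 37), with intervals that all held 1.86%. An absent word says only that these letters are not in the window. Tandem GGAA, of 3 or more units, lay in 1.19% (0.652% to 1.99%) of members, 2.14% of mirrored regions and 0.610% of all distal regions.

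The 8 members with an ETS word and the most reads began with chr1:125543658-125543967, which held 15 reads under Ad-Ets-1, 0 under Ad-GFP and 4 in the input. It lay 16628 bases from the start of Slc35f5, which encodes a solute carrier family protein, and it also held a CA run of 28 bases. The Gm37244 member, chr3:10813148-10813519, held 10, 0 and 0 reads. The Mir5118 member, chr16:55407909-55408230, held 9, 0 and 0, and the 1810053B23Rik member, chr16:93308708-93309140, 9, 0 and 1. The other 4, near Gm25491, Gm20753, Gm43749 and Gm43315, each held 8 reads under Ad-Ets-1 and 0 in both other libraries. These were taken by the same order of ties, as further members with the word also held 8 reads. Of all 21 members with the word, 6 (28.6%) held a run, the Slc35f5 and Gm25491 members among them.

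Most words of other factors stood near their level in all distal regions. The AP-1 word TGANTCA lay in 8.75% of members and 8.73% of all distal regions, the forkhead word TGTTTAC in 4.84% and 4.68%, the RUNX word TGTGGTT in 6.54% and 6.67%, and the homeodomain word TAATTA, read by β-cell factors such as Nkx6-1 and Pdx1, in 12.1% and 12.1%. The SP and KLF word GGGCGG lay in 1.87% and 1.71%, the RFX word GTTGCCA in 2.89% and 2.42% and the CTCF piece AGGGGGC in 2.21% and 1.69%. The GATA word AGATAA lay in 20.1% (17.8% to 22.5%) and 21.3%, the NFAT word GGAAAAT in 8.24% (6.73% to 9.96%) and 9.12%, and the CREB word TGACGTCA in 0.170% and 0.111%. Shares whose intervals lay below the level of all distal regions were those of the bHLH word CAGATG, which NeuroD1 reads, with 18.5% (16.3% to 20.9%) against 21.4%, and of the MAF word TGCTGAC, with 2.38% (1.59% to 3.42%) against 3.57%. Mirrored regions had 18.3% and 2.43% of these, close to the members.

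**Figure D4:**
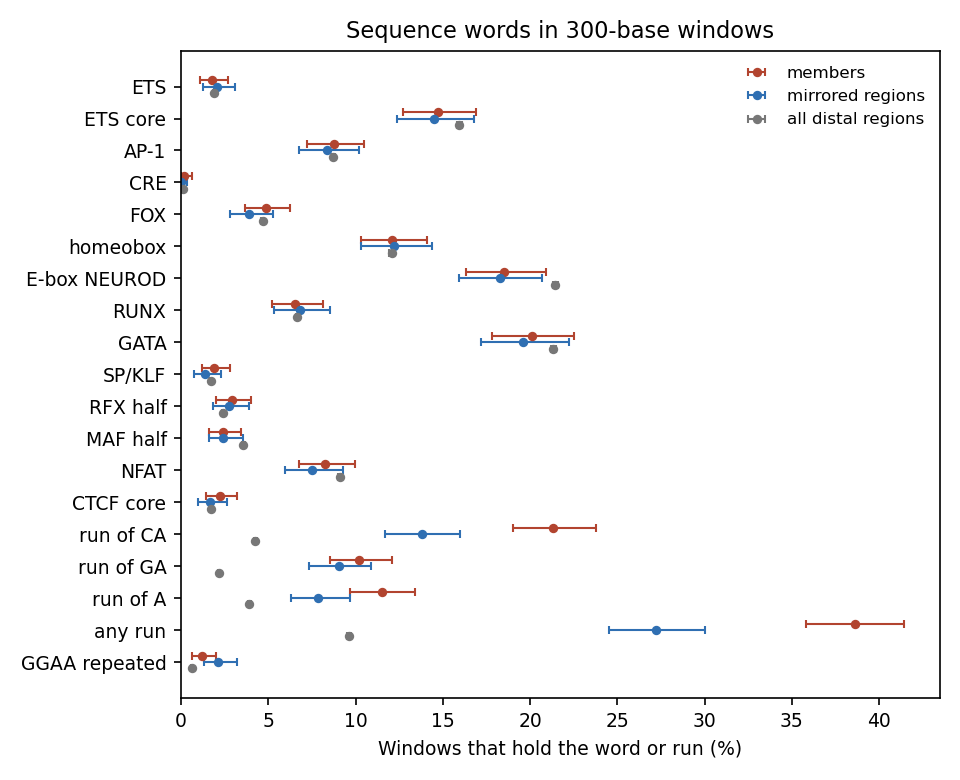
Share of 300-base windows that hold each word or run in percent (x), with exact 95% intervals, for members, mirrored regions and all distal regions. Most words of factors lie near each other in the 3 sets, as for ETS (1.78%, 2.04% and 1.86%), the E-box and MAF words are lower in members than in all distal regions, and the rows of runs stand apart (any run: 38.6%, 27.2% and 9.61%).

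In base composition the members were ordinary. Their median GC content was 39.3%, beside 38.3% in mirrored regions and 39.3% in all distal regions. Lower-case bases of the soft-masked reference, which mark interspersed and simple repeats, made up 43.3%, 44.5% and 41.7% of the windows on average. The central 50 bases occurred elsewhere in the genome for 95 members, 8.07% (6.58% to 9.78%), which was below the 12.2% of all distal regions and near the 7.28% of mirrored regions. For the central 100 bases it was 1.61%, 1.07% and 4.80%. A window with 10 or more CpG was found in 20 members, 1.70%, beside 0.874% of mirrored regions and 1.27% of all distal regions.

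The authors' deposited peak list of the Ets-1 virus library overlapped 1175 of the 1177 members. In that list their fold enrichment had a median of 3.28 and ran from 1.82 to 8.11, and the −log10 q had a median of 0.546. A q of 0.05 or less was reached by 519 members (44.1%), and in the control virus list by 423 mirrored regions (41.1%). The control virus list overlapped 202 members (17.2%), none at that q. These values come from the same reads as the rule. The share of all distal regions that reach this q is not given here, so the members' share cannot be compared with it.

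Reads in the surroundings, which the rule did not use, showed no excess with the Ets-1 virus. In the 5524 listed regions centred within 10 kb of a member, leaving out members and mirrored regions, Ad-Ets-1 gave 5908 reads and Ad-GFP gave 7689. Scaled to the library totals the ratio was 0.704 (exact interval on fragments 0.671 to 0.739). Around mirrored regions it was 0.726 (0.689 to 0.765), and over all other listed regions 0.777 (0.774 to 0.780). Counting only neighbours of at most 10 reads per library, the values were 0.696 around members, 0.723 around mirrored regions and 0.706 over all others. Within 2 kb the ratio was 0.678 (0.602 to 0.759) around members and 0.872 (0.769 to 0.991) around mirrored regions. Neighbouring reads were thus not raised along with the members' own.

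The median distance to the nearest start site as deposited was 33367 bases, beside 30850 for mirrored regions and 33104 for all distal regions, and 20.6% of members (18.3% to 23.0%) lay within 10000 bases, beside 18.8% of all distal regions. The nearest to a start site, at 1170 bases, was chrX:19356171-19356584 near Gm22783, with 8, 0 and 1 reads and a GA run of 44 bases. The farthest, at 740558 bases from Gm25392 on chromosome 18, held 8, 0 and 0 reads. Pairs of members within 10 kb of each other numbered 10, beside 11 among mirrored regions. In the Gm24006 pair on chromosome 19 the members held 8 and 15 reads, and in the Gm8526 pair on chromosome 13 they held 12 and 8. Of the 20 members in such pairs, 9 held a run. Both members held one only in the Gm24006 and Gm8526 pairs. Within 50 kb there were 52 pairs of members and 34 of mirrored regions.

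By chromosome the members ranged from 3.31 per 1000 distal regions on chromosome 14 to 6.04 (4.59 to 7.80) on chromosome 16 among autosomes. On chromosome X the value was 1.38 (0.920 to 2.00), from 28 members. Mirrored regions also had their lowest value on X, at 1.04, and their highest on chromosome 16, at 5.83. Input reads per distal region were lowest on X as well, at 0.0363, and highest on chromosome 16, at 0.0916. The copy number of these chromosomes in the cells was not tested.

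**Figure D5:**
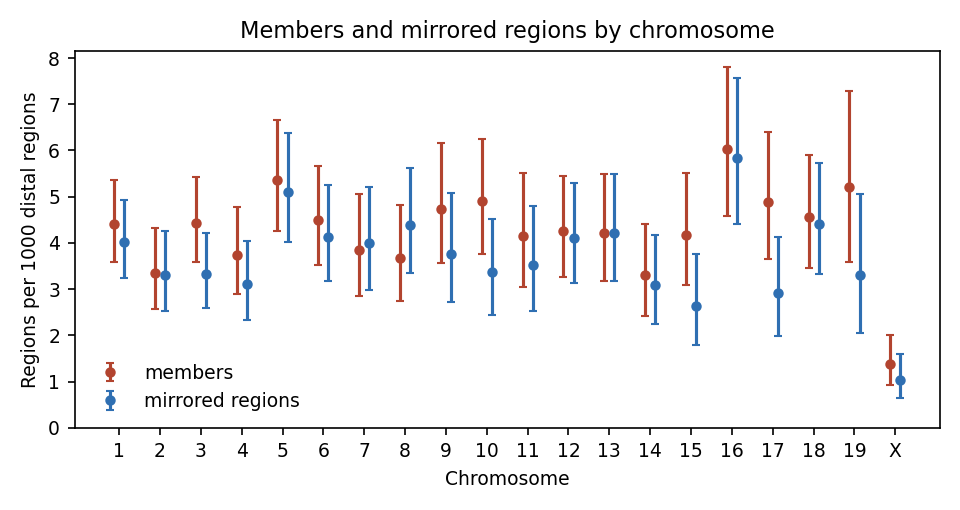
Members and mirrored regions per 1000 distal regions (y), with exact 95% intervals, for each chromosome (x). Chromosome X is lowest in both sets (1.38 and 1.04) and chromosome 16 highest (6.04 and 5.83).

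The genes nearest to members were mostly not protein coding. The nearest gene was protein coding for 283 members, 24.0% (21.6% to 26.6%), a pseudogene for 35.3% and a long noncoding RNA gene for 18.8%, beside 23.7%, 39.1% and 16.5% of all distal regions. In all 1074 genes were nearest to a member, 81 of them to more than 1 and none to more than 4. The annotation of GENCODE M21 placed 12 members inside a gene, 1.02%, beside 1.26% of mirrored regions and 0.794% of all distal regions.

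Members nearest to a gene of the lists for this tissue were few. From 29 β-cell identity genes, 3 members had one as nearest gene, 0.255% of members beside 0.109% of all distal regions. One was chr5:101647487-101647735, 17261 bases from the start of Nkx6-1, a homeodomain factor of mature β-cells, with 7 reads under Ad-Ets-1, 0 under Ad-GFP and 1 in the input. Its CA run, printed above, lies next to the region's end.

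The other members of that list lay far from Ins1, a mouse insulin gene. At chr19:52370457-52371103, 106134 bases from its start, there were 12 reads under Ad-Ets-1, 0 under Ad-GFP and 2 in the input, and no run. At chr19:52132031-52132612, 131711 bases from it, there were 8, 0 and 0 reads, and a GA run. No member had as nearest gene one of the 23 genes of glucose sensing and channels, the 24 of insulin signalling and FoxO, the 22 of the secretory granule, the 26 of the ETS family or the 17 of acinar and duct cells, which made up 0.00946%, 0.0364%, 0.0375%, 0.0228% and 0.0161% of all distal regions. Of 75 genes of cell adhesion and axon guidance, 3 were nearest to a member, so that the list took 0.255% of members, 0.485% of mirrored regions and 0.410% of all distal regions. They were Robo2 with 10, 0 and 0 reads, Slitrk1 with 9, 0 and 0, and Cdh18 with 7, 2 and 0. Irx1, of the list for other islet cells, had a member with 8, 0 and 0 reads, as had Col1a2, a collagen gene of fibroblasts. Each of these lists took 0.0850% of members, beside 0.0449% of all distal regions for the islet list and 0.0179% for the list that holds Col1a2.

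Functional elements annotated by RefSeq overlapped 2 members, 0.170% (0.0206% to 0.612%), beside 0 of 1030 mirrored regions and 0.0666% of all distal regions. One, chr6:89612789-89613200 near Chchd6, a gene for a mitochondrial protein, held 11 reads under Ad-Ets-1, 1 under Ad-GFP and 3 in the input. It overlaps an enhancer tested in mouse embryos and active there in limb, somite and midbrain. The other, near 4930546C10Rik, held 8, 2 and 0 reads.

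The runs were not limited to distal DNA. Under the same thresholds 41.5% (38.2% to 44.9%) of intron regions, 27.3% (23.1% to 31.7%) of promoter regions and 33.3% (22.7% to 45.4%) of exon regions held a run with the Ets-1 virus, beside 10.9%, 10.3% and 6.80% of all regions of these classes. With the control virus the shares were 29.0%, 28.3% and 21.7%. In introns the difference between the viruses resembled that of distal regions, and in promoters the values lay within each other's intervals.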

How the data were processed

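Ets-1 ChIP-seq reads of Min6 cells were analysed from the comparison table and both peak lists. The submitters' processing notes name MACS2 2.1.0, BWA 0.7.12, Trimmomatic and FastQC, and the build mm10, with no settings. Raw read counts of each region, as the authors deposited them per the file headers, were used unchanged. RPM values, which the authors deposited after adding 1 to each count, gave the library totals. Fold enrichment (a ratio) and −log10 q per peak are the authors' values for peaks called on 1 library each.

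Groups came from the sample titles, with 1 library each. Members, words, gene lists and the rule for named regions were chosen with earlier results of these data known. Named were the 12 members with the most reads (ties: fewer control reads, fewer input reads, then chromosome and start), those nearest a listed gene, the 8 with an ETS word and the most reads, those nearest to and farthest from a start site, and close pairs, of which examples are given. Nearest genes and distances are as deposited, with names from GENCODE M21 for 99.8% of members. Windows of 300 bases were read at region centres from GRCm38, the assembly of mm10. Shares have exact Clopper-Pearson intervals, and neighbour ratios an exact conditional binomial interval with 2 reads to a fragment. Scripts were tested on simulated data. Alternatives were stricter read limits, other windows, words, distances and start sites. Tools were scipy 1.17.1, numba 0.67.0, pandas 2.3.3, numpy 2.4.6 and matplotlib 3.10.9 under Python 3.11.15.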

Additional observations from a re-analysis of the deposited data

How the results depend on the processing

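No paired analysis was possible because there is 1 library to a group. Of 55 alternative values, 42 lay within the interval of the reported one (for the number of members, within 1.5 times of it) and 13 did not. A minimum of 10 reads with the Ets-1 virus left 269 members, with an ETS word in 0.743%, a run in 55.0% and a GC content of 41.0%. Mirrored regions with 10 or more control virus reads held a run in 39.0%. Without regions wider than 679 bases a run lay in 46.1% of members, beside 33.8% of mirrored regions and 9.60% of all distal regions. Among those wider than 260 bases it lay in 30.4%, 22.3% and 10.8%. The ETS word share was 2.80% over the whole region, 0.170% for CCGGAAGT alone and 14.7% for GGAAGT. For the whole region and for CCGGAAGT alone, no share of mirrored or all distal regions is given here. Members were wider than most listed regions, and a longer stretch can hold a word more often. The 2.80% therefore cannot be set beside the shares in windows of fixed length, and no excess of the word can be read from it. The share with a run was 24.9% in windows of 200 bases (mirrored regions 18.3%, all distal regions 6.51%) and 27.7% for runs of 20 or more bases (19.4% and 4.95%). The repeated share was 1.61% for the central 100 bases, and the neighbour ratio 0.762 within 50 kb. Every alternative for runs, the width split of 260 bases and the counting of mirrored regions as neighbours were chosen after seeing the data. Depth limits all of this: a typical member rests on about 4 fragments of 1 library, and no value here separates virus from library.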
